A study of Mus musculus with 6 samples.

Results

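Endoplasmic reticulum folding and degradation was examined in the mouse lens through 33 genes, taken by symbol from the 41449 rows of the deposited expression table. By role they comprise 11 chaperones, 7 folding enzymes (disulfide isomerases and their relatives, with the prolyl isomerase Ppib), 4 sensor-pathway genes, 7 degradation genes and 4 genes of the translocon, the channel through which new proteins enter the organelle. All 33 symbols were found once each. RNA had been sequenced from lenses of 2-month-old mice, in 3 libraries from wild-type mice (WT) of strain C57BL/6 and 3 from fibronectin conditional knockout mice (FNcKO, a mixed background of C57BL/6, 129 and FVB/N), each library made from 2 lenses and described as a biological replicate. The study asks what fibronectin does in the lens after birth. The Cre driver, the floxed part of the gene and any Cre or floxed allele in the WT mice are not stated in the labels. Strain background divided the libraries exactly as genotype did, so the contribution of each cannot be told apart.

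Secreted and membrane proteins fold in the endoplasmic reticulum (ER), where chaperones of the Hsp70, Hsp90 and lectin types hold unfolded chains and protein disulfide isomerases form their disulfide bonds. When unfolded protein accumulates, the sensors Ire1 (gene Ern1), Perk (Eif2ak3) and Atf6 start the unfolded protein response, which raises transcription of the chaperones and of the ER-associated degradation machinery. That machinery passes misfolded chains back to the cytosol for the proteasome. In the lens most crystallin is cytosolic, while the capsule collagens, the laminins and the channel and adhesion proteins of the fiber membrane are made through the ER.

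The unit, FPKM, divides a gene's fragments by transcript length and by library size, so levels can be set side by side between genes. Library depth, estimated from the low values of single-exon genes, lay between 26000000 and 31700000 fragments for WT and between 20700000 and 21900000 for FNcKO. WT replicate 2 has no value in the last 3578 rows, which touches Ppib and Manf. Fn1, the targeted gene, stood at 0.135, 0.188 and 0.253 FPKM in WT and 0.128, 0.0482 and 0.0942 FPKM in FNcKO, low in both and without overlap. Lens identity was plain from the markers: of 10 fiber cell genes, crystallins among them, the 9 rows complete over the libraries summed to between 73225.6 and 78490.1 FPKM in WT and between 79695.2 and 85765.3 FPKM in FNcKO. The 10 epithelial genes summed to 1387.63 to 1440.41 FPKM in WT and 1479.21 to 1697.55 FPKM in FNcKO.

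Some genes of neighbouring tissue differed between the genotypes: 1 photoreceptor gene was lower in FNcKO and 1 ciliary or iris gene higher by the test used below, as were 2 epithelial genes. All 12 photoreceptor genes were above the filter of 1 FPKM used below, and the 11 complete ones summed to 28.9 to 81.5 FPKM in WT and 42.0 to 42.5 FPKM in FNcKO. Of 8 pigment cell genes 2 were above the filter (summed 11.6 to 18.95 FPKM in WT, 6.67 to 8.46 in FNcKO), and of 6 ciliary body and iris genes 5 were (32.6 to 41.7 FPKM in WT, 63.1 to 79.4 in FNcKO). Above the filter stood 1 of 5 corneal, 1 of 6 blood, 1 of 5 endothelial, 2 of 6 fibroblast and 0 of 7 leukocyte genes, with summed ranges of 25.7 to 30.7, 6.78 to 8.64, 1.17 to 1.38, 8.71 to 9.42 and 1.64 to 3.41 FPKM in WT and of 13.6 to 43.4, 8.01 to 9.73, 1.35 to 2.00, 9.06 to 10.1 and 0.706 to 3.17 FPKM in FNcKO. Krt12, Kera and Cdh5 were listed at 0 in all 6 libraries. In whole-lens RNA fewer cells of a type and less RNA per cell cannot be told apart. The part of these other cells in the ER gene values below was not tested.

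A regulatory sequence recurs in the promoters of these genes. The ER stress response element (ERSE), which the factors NF-Y and Atf6 are known to bind, has the letters CCAAT and CCACG with 9 free bases between them. RefSeq windows from 250 bases before to 50 bases after the start of transcription (GRCm38.p6) were at hand for 28 of the 33 genes, and 9 of the 28 held this element on either strand: Calr, Canx, Creld2, Derl3, Dnajc3, Hsp90b1, Hspa5, Pdia6 and Syvn1. Among all 27025 genes with such a window, 37 (0.137%) held it. The shorter ERSE-II, ATTGG and CCACG with 1 free base between them, was in the windows of Dnajb11 and Herpud1, and in 0.0444% of all genes. Many of these genes are textbook targets of the response, so the count describes the list. The matches are shown because they are the regulatory letters these genes have in common, written 5′ to 3′ in the direction of the element with its fixed letters in capitals.
Calr ERSE: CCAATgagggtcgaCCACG
Canx ERSE: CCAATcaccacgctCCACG
Creld2 ERSE: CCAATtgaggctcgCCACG
Derl3 ERSE: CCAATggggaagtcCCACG
Dnajc3 ERSE: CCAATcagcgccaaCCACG
Hsp90b1 ERSE nearer the start: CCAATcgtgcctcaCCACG
Hsp90b1 ERSE farther from the start: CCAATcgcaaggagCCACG
Hspa5 ERSE: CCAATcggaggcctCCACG
Pdia6 ERSE: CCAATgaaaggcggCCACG
Syvn1 ERSE: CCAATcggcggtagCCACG
Dnajb11 ERSE-II: ATTGGcCCACG
Herpud1 ERSE-II: ATTGGgCCACG

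Positions of the ERSE matches ran from 162 bases before the start (Calr) to 26 bases before it (Syvn1), apart from the farther match of Hsp90b1 at 212 to 194 bases before the start. Hspa5 (65 to 47 bases before the start, chr2:34772025-34772043) and Pdia6 (98 to 80 bases before, chr12:17266491-17266509) carry it in the direction of the gene. The ERSE-II match of Herpud1 lay 52 to 42 bases before the start, that of Dnajb11 after its start (chr16:22857852-22857862). The 250 bases before the start of Hspa5, Hsp90b1 and Herpud1 are given whole, on each gene's own strand, since they show an element close to the start, a pair of elements in opposite directions and the shorter form. Capitals mark the fixed letters of each ERSE or ERSE-II match only. These letters read as their reverse complement where the match lies on the other strand.
Hspa5, chr2:34771840-34772089, plus strand: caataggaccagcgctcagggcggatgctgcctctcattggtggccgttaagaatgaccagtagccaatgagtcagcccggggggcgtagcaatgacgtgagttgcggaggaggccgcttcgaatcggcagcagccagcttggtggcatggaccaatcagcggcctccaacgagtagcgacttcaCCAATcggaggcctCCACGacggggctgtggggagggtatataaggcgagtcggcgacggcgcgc
Hsp90b1, chr10:86705445-86705694, minus strand: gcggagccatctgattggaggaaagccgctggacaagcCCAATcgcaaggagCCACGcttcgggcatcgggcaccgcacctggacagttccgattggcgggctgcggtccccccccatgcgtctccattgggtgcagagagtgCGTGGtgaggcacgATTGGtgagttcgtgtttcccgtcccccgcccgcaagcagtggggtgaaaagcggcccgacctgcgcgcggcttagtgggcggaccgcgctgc
Herpud1, chr8:94386179-94386428, plus strand: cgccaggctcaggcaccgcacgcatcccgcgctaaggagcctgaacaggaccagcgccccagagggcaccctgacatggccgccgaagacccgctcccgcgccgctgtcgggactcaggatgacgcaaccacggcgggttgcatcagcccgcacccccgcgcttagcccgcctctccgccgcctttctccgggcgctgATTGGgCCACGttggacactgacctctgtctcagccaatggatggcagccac

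Neither of the other elements searched was common. The Xbp1-type element TGACGTGG was in 0 of the 28 windows (0.714% of all genes), and TGATGNAAN, a form of the element read by Atf4 with a partner, was in 1, Herpud1 (4.5% of all genes). The 10 tested genes with an ERSE or ERSE-II had a median level of 25.75 FPKM, against 7.49 FPKM for the 14 tested genes with a window and neither element. Their median log2 changes between genotypes, described below, were -0.05 and 0.06, with 3 of 10 and 9 of 14 above 0.

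**Figure D1:**
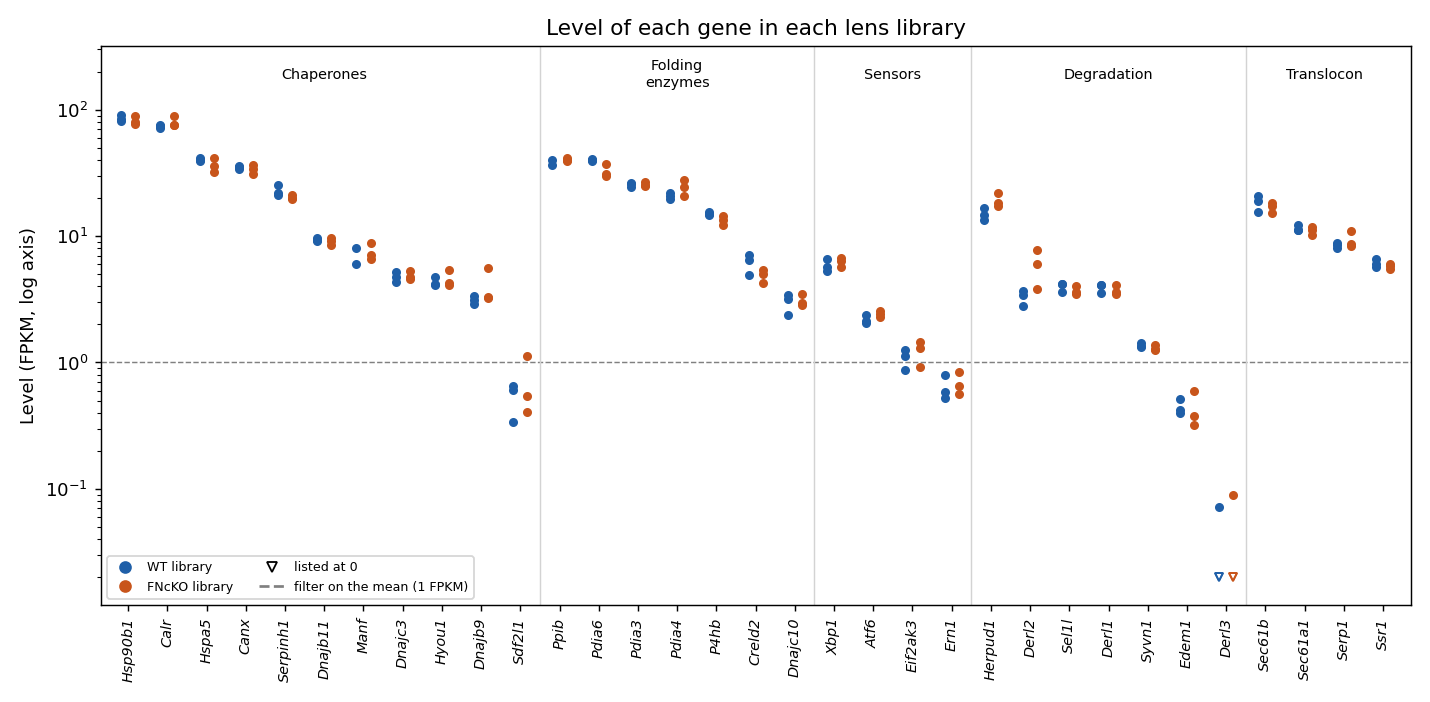
Level of each of the 33 genes (x axis, grouped by role and ordered by mean level) in each library (y axis, FPKM, log axis); each point is a library, triangles are values listed at 0, where points coincide, and the dashed line is the filter of 1 FPKM on the mean. Hsp90b1 and Calr stand highest, Sdf2l1, Ern1, Edem1 and Derl3 lie below the filter, and the points of the genotypes overlap for all but Pdia6, P4hb, Herpud1 and Derl2.

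In the adult lens the most abundant ER genes were folding genes, while the sensor genes Ern1, Eif2ak3 and Atf6 were scarce. Hsp90b1 (the ER Hsp90, also called Grp94) stood higher than 95.1% of the 10149 genes tested and Calr (calreticulin, a calcium-binding lectin chaperone) higher than 94.8%. Ppib (cyclophilin B), Hspa5 (BiP, the ER Hsp70), Pdia6 and Canx (calnexin, the membrane-bound lectin chaperone) each stood above more than 90% of them. Eif2ak3, by contrast, stood above 4.8% and the ubiquitin ligase Syvn1 (Hrd1) above 10.1%. Summed over complete rows, the chaperones held 279.75 ± 10.8 FPKM in WT and the sensor-pathway genes 9.78 ± 0.645 FPKM (SD, n = 3).

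Between genotypes, 0 of the 29 genes that cleared the filter passed limma's test at adjusted p 0.05, where 1.89% of all 10149 genes tested did (0.857% higher and 1.03% lower in FNcKO). At an unadjusted p under 0.05 there were 3 of 29, where 18.1% of all genes lay, and in 4 of 29 the genotypes did not overlap, which held for 25.6% of all genes. Of the 29, 15 had a log2 change (FNcKO minus WT, in log2(FPKM + 1)) above 0 and 14 below, where 39.7% of all genes lay above 0, with a median of 0.01, beside a median of -0.04 over all genes. The median size of a change, whatever its sign, was 0.09 for the 29 and 0.13 over all genes. Over their 31 complete rows the summed level of the ER genes was 472.5 ± 18.6 FPKM in WT, against 468.5 ± 36.1 FPKM for FNcKO (SD, n = 3 each).

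How large a change the intervals leave room for depended on the scaling. In the values as deposited, the 95% interval of the difference lay inside a 1.5-fold change in either direction, on the log2(FPKM + 1) scale, for 25 of the 29, the others being Derl2, Dnajb9, Creld2 and Herpud1. It lay inside a 2-fold change for 28, all but Derl2. Adding 1 compresses low values: with 0.1 in its place 24 of 29 lay inside 1.5-fold, and Eif2ak3 joined the others. With median-ratio scaling or quantile normalization 26 lay inside 1.5-fold and 28 inside 2-fold. With every library brought to the same total outside the crystallins, only 1 of 29 (Syvn1) lay inside 1.5-fold and 21 inside 2-fold, the others being Derl2, Dnajb9, Serp1, Pdia4, Calr, Herpud1, Ppib and Manf.

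**Figure D2:**
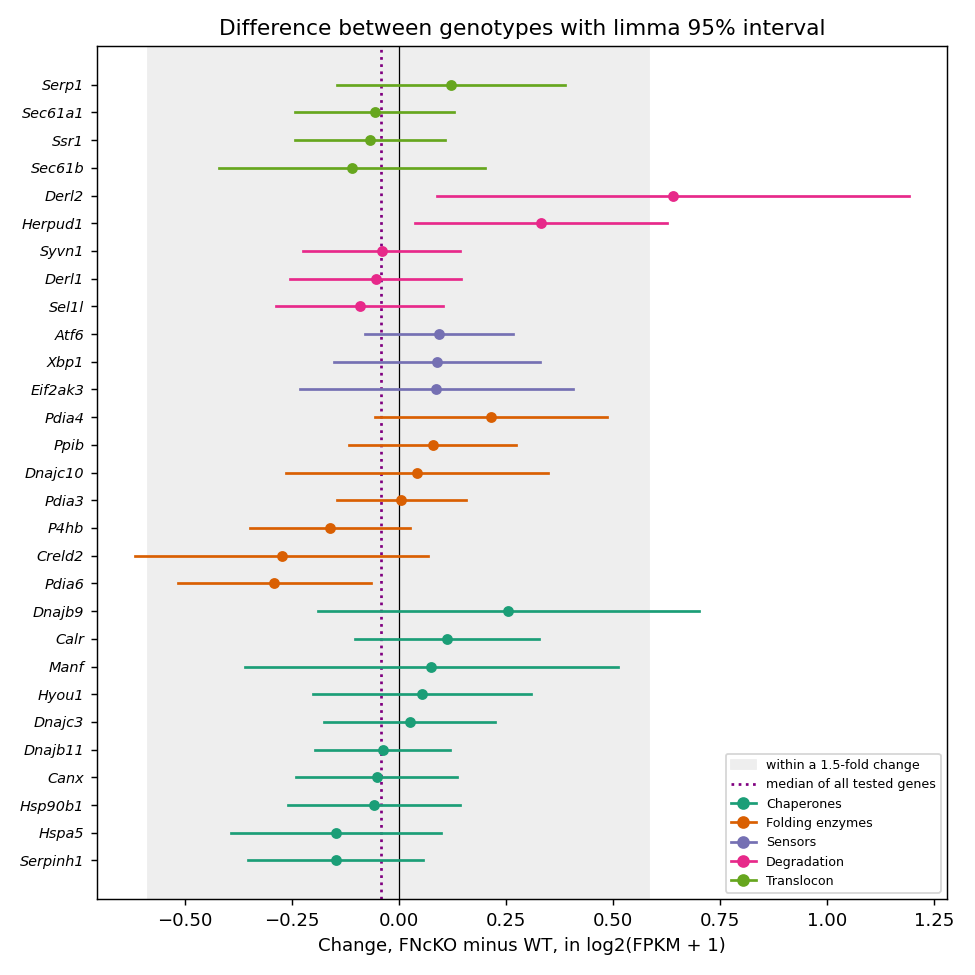
Difference between genotypes for the 29 tested genes (x axis, FNcKO minus WT in log2(FPKM + 1); y axis, gene, coloured by role), with points for the estimate and bars for limma's 95% interval; the grey band is a 1.5-fold change and the dotted line the median of all tested genes (-0.04). The bars of Pdia6, Herpud1 and Derl2 do not reach 0, and those of Derl2, Herpud1, Dnajb9 and Creld2 leave the band.

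Among the chaperones, 0 of 10 tested passed and none of the 10 had separate groups. Hsp90b1 stood at 81.95, 84.2 and 90.5 FPKM in WT and at 76.9, 89.3 and 80.5 FPKM in FNcKO. Hspa5 stood at 39.6, 39.996 and 41.2 FPKM in WT and at 35.6, 41.6 and 32.2 FPKM in FNcKO, with FNcKO replicate 2 above every WT library and the other two FNcKO libraries below them (log2 change -0.15, 95% interval -0.39 to 0.10, limma adjusted p = 0.51). Calr stood at 71.6, 74.3 and 75.9 FPKM in WT and at 75.9, 89.6 and 75.3 FPKM in FNcKO, so that only FNcKO replicate 2 lay clear of the WT range (log2 change 0.11, interval -0.10 to 0.33; 0.03 without that library). The same library stood apart for Dnajb9 (ERdj4, a J-protein that serves BiP), which was 3.15, 2.92 and 3.36 FPKM in WT and 3.24, 5.59 and 3.32 FPKM in FNcKO (log2 change 0.26, interval -0.19 to 0.70). Without FNcKO replicate 2 its log2 change was 0.05.

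Serpinh1 (Hsp47), the chaperone of procollagen, was 22.0, 21.1 and 25.2 FPKM in WT and 20.1, 21.3 and 19.8 FPKM in FNcKO. One FNcKO value fell inside the WT range, the log2 change was -0.15 (interval -0.35 to 0.06) and limma's adjusted p was 0.424. Sdf2l1, a partner of BiP, was below the filter, at 0.34, 0.607 and 0.654 FPKM in WT and 0.404, 1.123 and 0.544 FPKM in FNcKO. Canx, Hyou1 (Grp170), Manf and the J-proteins Dnajb11 (ERdj3) and Dnajc3 (p58IPK) had log2 changes between -0.05 and 0.08, with adjusted p from 0.776 to 0.907. Manf rests on 2 WT values and overlaps Rbm15b and Dcaf1 in the annotation.

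Folding enzymes held the lowest adjusted p of the 29 genes, in Pdia6, an isomerase that binds BiP and is known to act on Ire1. It was 41.1, 39.2 and 39.8 FPKM in WT and 30.0, 37.0 and 31.0 FPKM in FNcKO, every FNcKO value below every WT value. The means were 40.03 ± 0.974 and 32.7 ± 3.75 FPKM (SD, n = 3 each), 0.817 times WT, with a log2 change of -0.29 (SE 0.09, interval -0.51 to -0.07) and limma adjusted p = 0.19. With 1 library left out, limma's adjusted p ran from 0.0857 to 0.387. It was lowest without FNcKO replicate 2, its highest FNcKO value. P4hb, the classical protein disulfide isomerase and a subunit of prolyl hydroxylase, also had separate groups, at 15.4, 14.9 and 14.7 FPKM in WT and 13.3, 12.2 and 14.5 FPKM in FNcKO. The highest FNcKO value of P4hb lay just under the lowest WT value (log2 change -0.16, SE 0.08, adjusted p = 0.342).

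Pdia4 (ERp72) lay the other way, at 19.5, 20.6 and 21.9 FPKM in WT and 20.9, 27.6 and 24.4 FPKM in FNcKO (log2 change 0.22, interval -0.06 to 0.49, limma adjusted p = 0.376). One FNcKO library fell inside its WT range, and without FNcKO replicate 2 the log2 change was 0.12. Creld2, a disulfide isomerase-like protein of the stress response, was 4.93, 7.04 and 6.5 FPKM in WT and 5.04, 5.41 and 4.24 FPKM in FNcKO, with a single WT library among the FNcKO values (log2 change -0.27, interval -0.61 to 0.07). Ppib, which assists collagen folding, was 36.3 and 39.8 FPKM in WT replicates 1 and 3 and 41.3, 40.1 and 39.3 FPKM in FNcKO, and overlaps Snx22 on the other strand. Pdia3 (ERp57, the partner of calnexin and calreticulin) had a log2 change of 0.01 with an interval of -0.14 to 0.16, and Dnajc10 (ERdj5, a reductase) one of 0.04.

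None of the 4 sensor-pathway genes had separate groups. Xbp1, the most abundant of them, stood above 63.7% of tested genes and Atf6 above 31.3%. Xbp1, whose RNA is spliced by Ire1 to make an active factor, was 5.25, 5.72 and 6.62 FPKM in WT and 6.39, 6.74 and 5.73 FPKM in FNcKO, overlapping (log2 change 0.09, interval -0.15 to 0.33). Atf6, which is cleaved to a factor when it reaches the Golgi, was 2.15, 2.37 and 2.07 FPKM in WT and 2.4, 2.29 and 2.54 FPKM in FNcKO, with 1 FNcKO value inside the WT range (log2 change 0.09, limma adjusted p = 0.547). Ern1 was below the filter, at 0.522, 0.802 and 0.588 FPKM in WT and 0.654, 0.564 and 0.835 FPKM in FNcKO. Eif2ak3 had a log2 change of 0.09 (interval -0.23 to 0.41). The table gives 1 value per gene, so splicing of Xbp1, cleavage of Atf6 and phosphorylation by Perk were not measured.

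Degradation genes held both of the genes with higher and separate FNcKO values, 2 of the 29, where 9.31% of all genes were higher and separate. Herpud1 (Herp), a membrane protein that organises the Hrd1 ligase complex, was 13.4, 14.8 and 16.6 FPKM in WT and 17.2, 22.0 and 18.2 FPKM in FNcKO. Its means were 14.9 ± 1.63 and 19.1 ± 2.54 FPKM (SD, n = 3 each), 1.28-fold, with a log2 change of 0.33 (SE 0.12, interval 0.04 to 0.63) and limma adjusted p = 0.231. Derl2 (derlin-2, of a family that helps misfolded proteins leave the ER) was 3.65, 2.78 and 3.45 FPKM in WT and 6.03, 3.82 and 7.75 FPKM in FNcKO. It was 1.78-fold higher by its means of 3.29 ± 0.451 and 5.86 ± 1.97 FPKM (SD, n = 3 each), with a log2 change of 0.64 (SE 0.22, interval 0.09 to 1.19) and limma adjusted p = 0.222. The FNcKO libraries of Derl2 were far apart, and replicate 2, the highest FNcKO library for Hspa5, Hsp90b1 and Calr, was here the lowest.

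Derl2 overlaps Mis12 by 231 bases on the other strand, as Herpud1 does Gm15890 by 535 and Pdia6 does Atp6v1c2 by 50. The labels do not state whether fragments were counted by strand. Mis12 itself stood at 1.91, 2.15 and 1.74 FPKM in WT and 1.44, 1.92 and 1.38 FPKM in FNcKO, not higher in FNcKO. Of the other degradation genes, Sel1l, Syvn1 and Derl1, the core of the Hrd1 complex and a second derlin, had log2 changes of -0.09, -0.04 and -0.05 with limma adjusted p of 0.606, 0.825 and 0.78. Edem1, a lectin that picks out misfolded glycoproteins, was 0.513, 0.402 and 0.419 FPKM in WT and 0.319, 0.376 and 0.592 FPKM in FNcKO, below the filter. Derl3, the derlin of strongly secreting cells, was listed at 0 in 4 libraries and stood at 0.0717 FPKM in WT replicate 3 and 0.0895 FPKM in FNcKO replicate 2. The summed FPKM of the 7 degradation genes was 26.1 to 30.2 in WT and 31.9 to 35.7 in FNcKO, and Herpud1 and Derl2 were the most abundant of the 7 in FNcKO.

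**Figure D3:**
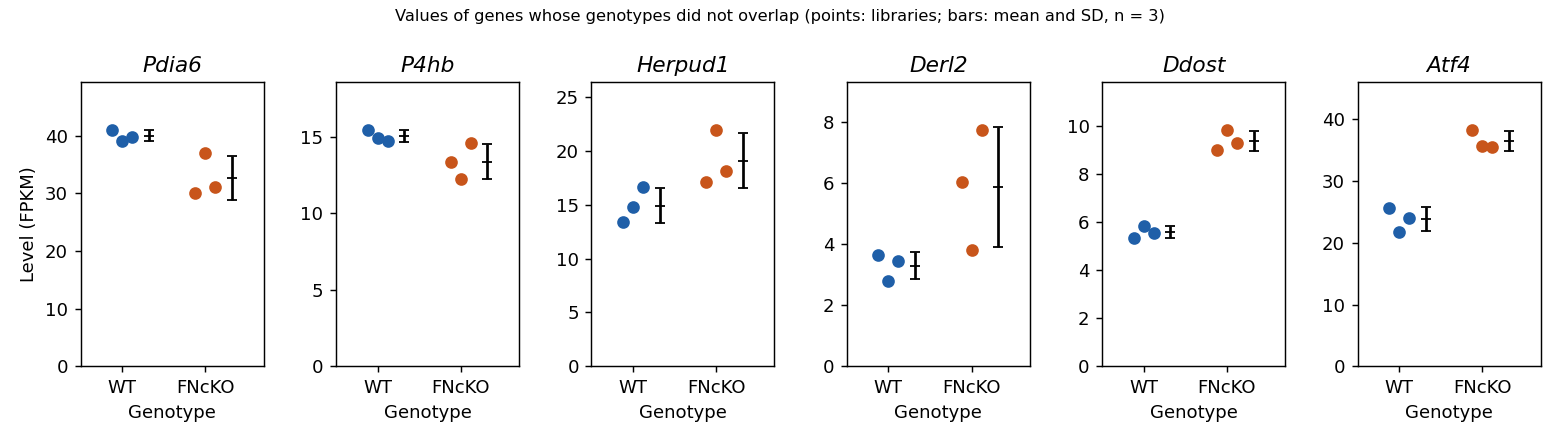
FPKM (y axis, from 0) by genotype (x axis) for the 4 tested ER genes whose genotypes did not overlap, Pdia6, P4hb, Herpud1 and Derl2, and for Ddost and Atf4, which passed the test; points are libraries and bars the mean with its SD (n = 3 each). The FNcKO values of Derl2 run from 3.82 to 7.75 FPKM, while those of Ddost stay between 9.03 and 9.87 FPKM.

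None of the 4 translocon genes passed the test or had separate groups. Sec61b stood at 15.5, 18.9 and 20.8 FPKM in WT and 15.2, 17.3 and 18.3 FPKM in FNcKO, and Sec61a1, the channel-forming subunit, at 11.2, 11.2 and 12.3 FPKM in WT and 11.1, 11.9 and 10.3 FPKM in FNcKO. Both overlapped, with log2 changes of -0.11 (interval -0.42 to 0.20) and -0.06 (interval -0.24 to 0.13). Ssr1, a subunit of the translocon-associated protein complex, and Serp1 (Ramp4) had log2 changes of -0.07 and 0.12 and limma adjusted p of 0.673 and 0.611. Without FNcKO replicate 2 these changes were -0.04 and 0.01.

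The clearest structure within the FNcKO group was 1 library. FNcKO replicate 2 held the highest FNcKO value in 21 of the 29 genes, where it did so in 49.7% of all genes tested, and after median-ratio scaling, which removes a general shift between libraries, in 17 of 29 against 30.5%. With every library brought to the same total outside the crystallins it did so in 28 of 29 against 86.7%. Relative to the mean of the other two FNcKO libraries the median log2 difference of the 29 was 0.17, beside 0.08 over all genes; after median-ratio scaling these were 0.06 and -0.0016. Dnajb9 was the farthest, at 0.62 above the other two, a difference larger than in 98.1% of all genes, followed by Serp1 (0.34), Manf (0.33), Herpud1, Hyou1, Hspa5, Pdia4, Pdia6 and Calr, all between 0.24 and 0.30. Derl2 (-0.70), P4hb (-0.17), Ssr1 (-0.09) and Atf6 (-0.08) were the 4 lowest in that library relative to the other two.

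In the same library the total FPKM was the lowest of the 6, 1251386 against 1492177 and 1519627 in the other two FNcKO libraries, and crystallins took the highest share, 37.1%. Their part in the ER values of this library was not tested. With FNcKO replicate 2 left out, 10 of the 29 genes had log2 changes above 0 instead of 15 and the median of the 29 was -0.03, beside -0.07 over all genes. Log2 changes also moved by over 1.5 times for Hspa5 (to -0.24), P4hb (to -0.10), Xbp1 (to 0.04) and Eif2ak3 (to 0.01). They did so too for Hsp90b1 (to -0.12), Canx (to -0.11), Derl1 (to -0.11), Sec61a1 (to -0.10) and Sel1l (to -0.14). Signs turned for 5 further genes, and none of these genes passed the test either way. The corresponding differences of the other libraries from the rest of their group had medians between -0.09 and 0.09 over the ER genes. As deposited, FNcKO replicate 2 lay above the mean of the rest of its group in 23 of 29 genes (67.1% of all genes). WT replicate 3 was much alike, in 21 of 27 (65.1% of all genes).

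**Figure D4:**
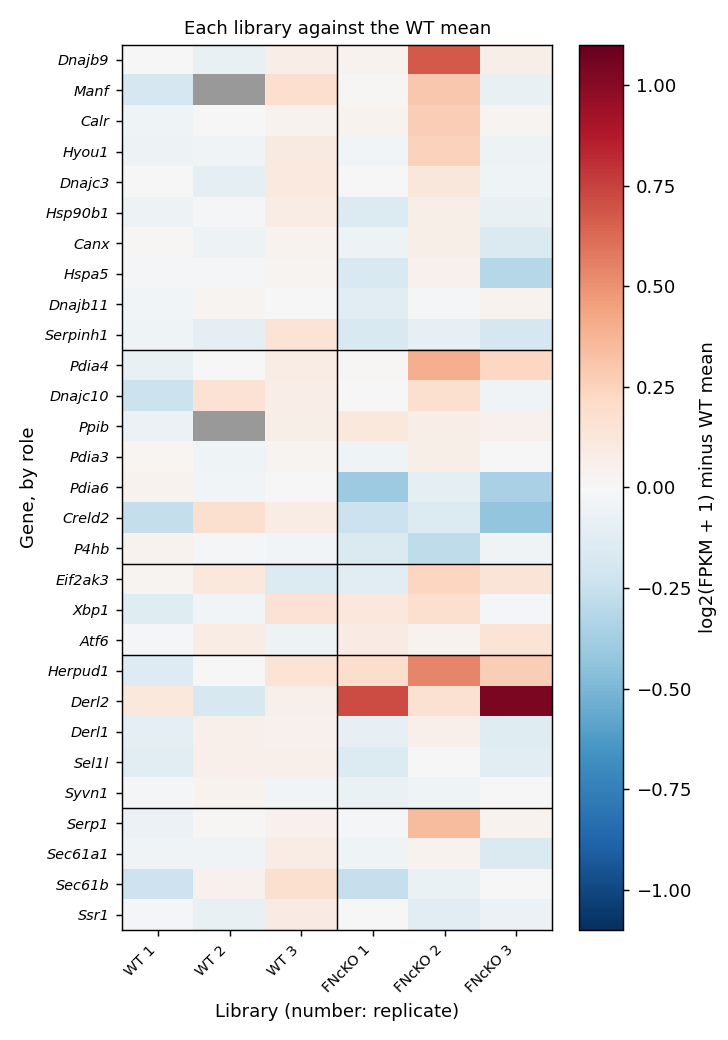
Difference of each library (x axis) from the WT mean, in log2(FPKM + 1), for the 29 tested genes (y axis, grouped by role and ordered by FNcKO replicate 2 within a role); red is higher, blue lower and grey no value. The FNcKO replicate 2 column is red for Dnajb9, Herpud1, Pdia4 and Serp1, while Derl2 is darkest in FNcKO replicates 1 and 3.

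The wider machinery was followed in 6 further lists of 104 genes in the table, of which 96 were tested. Of these 96, 2 rose and 0 fell, where 1.89% of all genes passed the test, so the count is near the background. Groups were separate in 12 of 96, against 25.6% of all genes, and the median log2 change was 0.00029. Ddost, a subunit of the oligosaccharyltransferase that attaches N-glycans to new chains, rose from 5.37, 5.85 and 5.55 FPKM in WT to 9.03, 9.87 and 9.31 FPKM in FNcKO. This was 1.68-fold, from 5.59 ± 0.243 to 9.4 ± 0.426 FPKM (SD, n = 3 each; log2 change 0.66, SE 0.06, limma adjusted p = 0.0114). It was the 1 call among 15 genes of glycan attachment and the calnexin cycle, whose median log2 change was -0.08. Ddost missed the threshold without WT replicate 1, WT replicate 3 or FNcKO replicate 3 (adjusted p up to 0.0712).

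Atf4, the factor translated when Perk or a related kinase phosphorylates eIF2α, rose from 25.6, 21.8 and 24.0 FPKM in WT to 38.4, 35.8 and 35.5 FPKM in FNcKO (1.53-fold, log2 change 0.60, SE 0.08, limma adjusted p = 0.0315). It was the 1 call among 16 tested genes of unfolded protein signalling and their partners, and leaving out any 1 of the 6 libraries ended the call (adjusted p from 0.0696 to 0.124). Its target Ddit3 (Chop), chosen after its values were seen, was 12.9, 10.5 and 11.5 FPKM in WT and 11.1, 17.2 and 14.8 FPKM in FNcKO, overlapping (adjusted p = 0.462). Ppp1r15a, from the same list, had means of 25.3 FPKM in WT and 29.6 FPKM in FNcKO, overlapping (limma adjusted p = 0.547). Trib3, Chac1, Asns and Stc2, also chosen after their values were seen, were below the filter. Means of Asns (0.599 in WT, 0.542 FPKM in FNcKO) and Stc2 (0.191 and 0.118) were lower in FNcKO, that of Chac1 (0.0300 and 0.113) higher. Trib3 was listed at 0 in all but FNcKO replicate 2, at 0.05 FPKM. Slc7a5, another known target and 1 of the 2 epithelial genes called above, was also chosen after its values were seen. In WT it was 6.75, 7.15 and 6.82 FPKM. It was 10.2, 10.4 and 10.3 FPKM in FNcKO (1.49-fold, limma adjusted p = 0.0159). These are not all targets of Atf4, and its part in their values was not tested.

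The other 4 lists held no call by limma's test. Their counts at an unadjusted p under 0.05 are to be read beside 18.1% of all genes. Among 12 tested oxidoreductases 1 had an unadjusted p under 0.05, and the lowest p belonged to Prdx4, a peroxiredoxin of the ER, at 4.18 and 3.70 FPKM in 2 WT libraries and 5.50, 6.87 and 7.57 FPKM in FNcKO (adjusted p = 0.121), and to Tmx3 (adjusted p = 0.478). Among 12 tested prolyl isomerases and collagen-modifying enzymes 3 did, of which Plod1, a lysyl hydroxylase of collagen, was 2.0997, 2.01 and 2.11 FPKM in WT and 4.14, 3.09 and 3.29 FPKM in FNcKO (adjusted p = 0.0634). Fkbp2 was lower in FNcKO, at 13.9, 15.5 and 14.3 against 7.99, 10.99 and 7.58 FPKM (adjusted p = 0.0805). Both had separate groups, as 25.6% of all genes did, without passing the test.

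Among 21 further degradation genes 1 did, and it was Aup1. This gene, a lipid droplet and Hrd1 complex protein, was 7.05, 7.20 and 8.33 FPKM in WT and 5.42, 5.52 and 5.96 FPKM in FNcKO (limma adjusted p = 0.0948), and the segregase Vcp had adjusted p = 0.355. Among 20 further targeting and translocation genes 2 did, and the lowest p belonged to Srp54a, of the signal recognition particle, at 2.12, 1.95 and 2.41 against 3.24, 2.64 and 3.11 FPKM (adjusted p = 0.148), and to Ssr4 (adjusted p = 0.241). The medians of these 4 lists lay between -0.02 and 0.07.

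The direction of 14 of the 29 genes depended on the scaling between libraries. With every library brought to the same total outside the crystallins, the median log2 change of all genes moved from -0.04 to 0.29 and all 29 ER genes came to lie above 0, with a median of 0.37. Set against the all-gene median, 22 of the 29 kept their side under the values as deposited and the 3 other scalings, 15 above it and 7 below. Herpud1 lay above it by 0.38 to 0.45, Derl2 by 0.67 to 0.69 and Pdia4 by 0.26 to 0.33. Pdia6 lay below it by between -0.25 and -0.17 and Creld2 by between -0.24 and -0.20, followed by P4hb, Hspa5, Serpinh1, Sel1l and Derl1. Under none of the 4 scalings did any of the 29 pass limma's test.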

How the data were processed

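The deposited values are FPKM, which the authors computed and gave as 1 table with a column per library. The builds mm10 and GRCm38.p5 and the tools Cuffdiff 2.2.1, TopHat2 2.1.0, cutadapt 1.12 and FastQC come from the submitters' processing notes. Annotation, library scaling and strand use are not stated there, so overlapping genes cannot be told apart.

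WT replicate 2 lacks 8.63% of rows, and genes there were tested on 5 libraries. From the FPKM values, log2(FPKM + 1) was tested in the 10149 genes whose mean reached 1 FPKM, with limma 3.58.1 in R 4.3.3 (trended empirical Bayes, two-sided, Benjamini-Hochberg over all genes, threshold 0.05). Folds are ratios of mean FPKM. The test was checked on simulated data built from 9407 genes. Each gene took the spread of a gene of similar level.

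Fragment numbers are not in the table. Depths were searched, over a range set after the values were seen, for whole fragment numbers in 25 to 52 low values of single-exon genes per library, with 200 bases taken off each length. At the depths given, 67.5% to 89.7% of values lay within 0.15 of a whole number. They enter no test.

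Values in every library were given for genes past the test, the 10 lowest p, the 2 most abundant of each role and those below the filter; in the wider lists, for calls or otherwise up to the 2 lowest p. Genes, lists and tests were chosen with earlier results of these data known. Some listed genes are not analysed here. Libraries were not paired by replicate number in the main test. Promoter windows are from RefSeq, GRCm38.p6.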

Additional observations from a re-analysis of the deposited data

How the results depend on the processing

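No ER gene of the 29 passed limma's test as deposited or under any of the 14 alternatives, in which their lowest adjusted p was 0.062 (Derl2, same total without crystallins). The count over all genes, 192 as deposited, was 86 with the same total without crystallins, 101 with no filter, and 48 to 111 with one library left out. With the replicate number as a block it was 14. Deviations of same-numbered libraries from their group means correlated at -0.03, -0.05 and -0.05, so the numbers give no sign of pairing. Under the block the log2 change of Manf was -0.035 and no call was gained among the 29.

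Signs turned in these cases, all far from the threshold, and the cause was not tested beyond the shift of the all-gene median. With the same total without crystallins the log2 changes were 0.27 (Hspa5), 0.37 (Hsp90b1), 0.37 (Canx), 0.35 (Dnajb11), 0.26 (Serpinh1), 0.24 (P4hb), 0.13 (Pdia6), 0.091 (Creld2), 0.25 (Sel1l), 0.21 (Syvn1), 0.29 (Derl1), 0.34 (Sec61a1), 0.30 (Sec61b) and 0.30 (Ssr1). After quantile normalization Hsp90b1 was 0.11 and Canx 0.050, and with median-ratio scaling Dnajb11 was 0.0077. With one library left out, ranges crossed 0 for Hyou1 (-0.044 to 0.11), Canx (-0.11 to 0.0030), Dnajb11 (-0.074 to 0.0063), Dnajc3 (-0.026 to 0.077), Manf (-0.11 to 0.26), Pdia3 (-0.024 to 0.032) and Dnajc10 (-0.075 to 0.12). Ddost and Atf4 stayed above 0 throughout and missed the threshold with the same total (adjusted p = 0.0528 and 0.0655) and the block (0.11 and 0.138), Atf4 also with no filter. With 3 libraries a group an exact permutation test cannot go below p = 0.1. Limma's p-values set the difference between genotypes against the spread between these libraries, drawn towards that of genes of similar level.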
